A study of Mus musculus with 2 samples.

Results

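The Mir148 and Mir152 family was examined in the stomach of B6NCrl mouse embryos aged 14.5 days. Its 3 members, Mir148a, Mir148b and Mir152, were taken from the deposited gene tables by Ensembl identifier and symbol, out of 1973 genes counted. MicroRNA sequencing had been done on the small fraction of total RNA, in 2 biological replicates of 1 group. Each replicate is labelled as a single stomach collected on its own day, while the sex is given as pooled male and female, so whether embryos were pooled is not settled by the labels. No treatment, genotype or age differed between the samples, and the day and the replicate cannot be told apart. All coordinates are on GRCm38 (mm10).

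A microRNA represses messenger RNAs that pair with its seed, bases 2 to 8 from the 5′ end. In this family the 3′ arm of the hairpin gives the main mature product, and the members share its seed. The family is known for repressing the maintenance DNA methyltransferase Dnmt1, and lower levels of its members have been described in human gastric tumours. The mature 3′ arm sequences of RefSeq (GRCm38.p6) are shown here because the seed defines the family, and capitals mark the seed.
mmu-miR-148a-3p: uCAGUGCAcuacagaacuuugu
mmu-miR-148b-3p: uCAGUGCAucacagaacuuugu
mmu-miR-152-3p: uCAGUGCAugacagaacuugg

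Among the 1738 mature miRNAs of the RefSeq table, these 3 were the only ones with this seed, and all 3 members had a hairpin and both arms there. The sequences part just behind the seed. Counted from 1 at the 5′ end, miR-148a-3p and miR-148b-3p differ by C9U and U10C, over 22 bases. Between miR-148a-3p and miR-152-3p the differences are C9U, U10G and U20G over the 21 bases compared, and between miR-148b-3p and miR-152-3p they are C10G and U20G. The 5′ arms are less alike. Their seeds, in capitals, are the same in Mir148a and Mir148b and differ in Mir152.
mmu-miR-148a-5p: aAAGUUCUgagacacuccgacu
mmu-miR-148b-5p: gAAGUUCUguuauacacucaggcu
mmu-miR-152-5p: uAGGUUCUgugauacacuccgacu

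Mir148a (ENSMUSG00000065505.1) lies on chromosome 6 at chr6:51269812-51269910, minus strand, and overlaps no other annotated gene. The nearest protein-coding gene, Nfe2l3, is 163 kb away. Mir148b (ENSMUSG00000065560.1) lies at chr15:103285125-103285221, plus strand, in intron 1 of all 4 annotated Copz1 transcripts. Mir152 (ENSMUSG00000065515.1) lies at chr11:96850393-96850465, plus strand, in intron 1 of Copz2 (3 of its 5 annotated transcripts, the others starting downstream of it). Copz1 and Copz2 encode the paralogous zeta subunits of the COPI vesicle coat, and each intronic member is on the strand of its host. The hairpins of 99, 97 and 73 nt are printed to show where the 3′ arm, in capitals, sits in each counted gene.
Mir148a: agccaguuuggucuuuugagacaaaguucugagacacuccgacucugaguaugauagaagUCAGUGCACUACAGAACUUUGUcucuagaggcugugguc
Mir148b: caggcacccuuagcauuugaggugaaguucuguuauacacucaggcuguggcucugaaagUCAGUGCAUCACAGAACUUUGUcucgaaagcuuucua
Mir152: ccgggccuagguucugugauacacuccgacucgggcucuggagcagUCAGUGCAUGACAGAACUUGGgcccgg

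In a global alignment the hairpins of Mir148a and Mir148b were 68.9% identical. Mir152 was 57.4% identical to Mir148a and 59.6% identical to Mir148b. No member's hairpin shared a run of more than 15 bases with any other of the 1005 hairpins in the RefSeq table, and none of the mature sequences occurred in another hairpin. This matters for the counts, because multi-mapping reads were assigned to no gene, and their number equalled 48.7% and 48.4% of the gene counts in replicates 1 and 2. Matches elsewhere in the genome were not searched. The deposited counts are per gene, so the 3′ and 5′ arms are summed and cannot be told apart.

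All 3 members were detected, with at least 10 counts in both libraries, as were 361 genes in all. Mir148a was the most abundant member. It had 5369 counts in replicate 1 and 5251 in replicate 2. Relative to the 5004548 and 4679914 gene counts of these libraries, this is 1073 and 1122 counts per 1000000 gene counts (CPM), with a mean of 1097 ± 34.8 CPM (SD, n = 2). The 95% exact binomial intervals, which cover counting error only, were 1044 to 1102 CPM in replicate 1 and 1092 to 1153 CPM in replicate 2. They overlapped slightly.

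Mir148b, the Copz1 intronic member, had 1612 counts in replicate 1 and 1406 in replicate 2. These are levels of 322 and 300.4 CPM, with a mean of 311 ± 15.3 CPM (SD, n = 2). Mir152, the Copz2 intronic member, had 1344 and 1223 counts in replicates 1 and 2. Its levels were 269 and 261 CPM, with a mean of 265 ± 5.11 CPM (SD, n = 2). In both libraries the order by CPM was Mir148a, Mir148b, Mir152, and the ranges of the members over the replicates did not overlap.

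**Figure D1:**
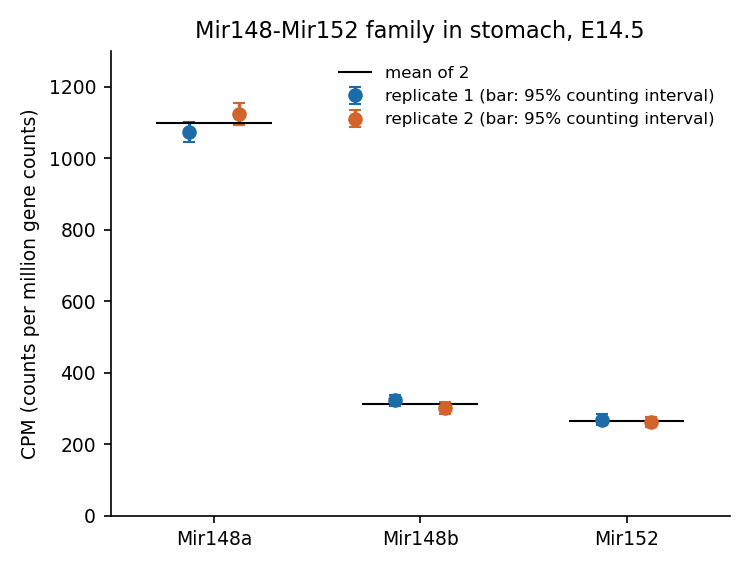
CPM of each family member (vertical axis, counts per 1000000 gene counts) in replicate 1 (left point) and replicate 2 (right point), with 95% counting intervals and a line at the mean of the 2 libraries. Mir148a sits at 1073 and 1122 CPM, above Mir148b at 322 and 300.4 CPM and Mir152 at 269 and 261 CPM.

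Ratios between members were taken within each library, so that library size drops out. Counts of Mir148a exceeded those of Mir148b 3.33-fold in replicate 1 (95% exact interval for counting error 3.15 to 3.52) and 3.73-fold in replicate 2 (3.52 to 3.96). The mean log2 ratio was 1.82 ± 0.12 (SD, n = 2). Mir148a exceeded Mir152 3.99-fold in replicate 1 and 4.29-fold in replicate 2, a mean log2 ratio of 2.05 ± 0.07. Both differences were larger than the spread between the replicates, and no test was run on them, since an exact test over 2 libraries cannot reach a p of 0.05.

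Mir148b and Mir152 were closer to each other. Mir148b exceeded Mir152 1.20-fold in replicate 1 (1.11 to 1.29) and 1.15-fold in replicate 2 (1.06 to 1.24), with a mean log2 ratio in counts of 0.23 ± 0.04 (SD, n = 2). Sequence counts of miRNAs are not usually divided by length, because a read spans the mature product. Divided by the length of the annotated precursor, the order of these 2 members turned round. Mir148b had 16.6 and 14.5 counts per nt of precursor in replicates 1 and 2, and Mir152 had 18.4 and 16.8, giving a log2 ratio of -0.18. On that scale Mir148a stayed highest, at 54.2 and 53.0 counts per nt. Differences between miRNAs in how efficiently they enter a library are shared by both replicates and were not tested.

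**Figure D2:**
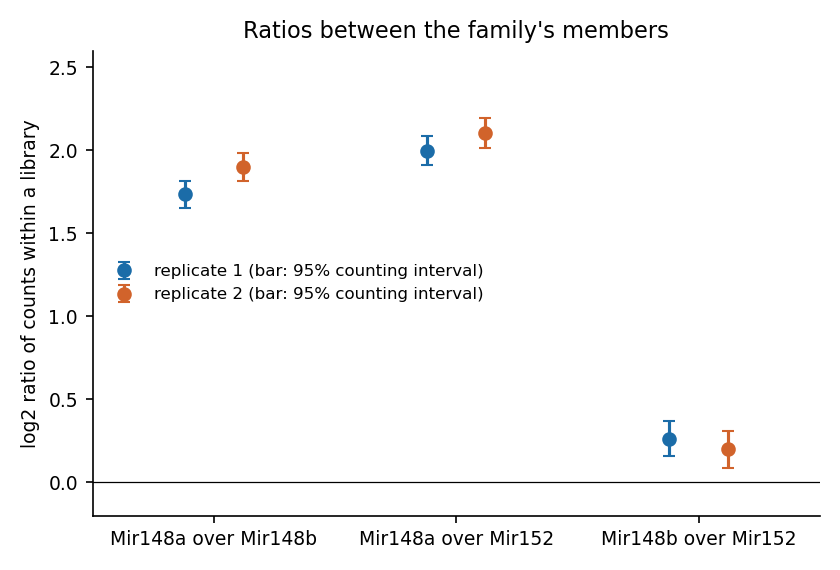
Log2 ratio of counts between pairs of members within each library (vertical axis), for replicate 1 (left point) and replicate 2 (right point), with 95% exact intervals for counting error. Ratios of Mir148a over Mir148b and over Mir152 lie between 1.74 and 2.10, and those of Mir148b over Mir152 at 0.26 and 0.20.

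Together the members had 8325 counts in replicate 1 and 7880 in replicate 2. The family total was 1663 and 1684 CPM, or 1674 ± 14.4 CPM (SD, n = 2), which is 0.166% and 0.168% of gene counts. Mir148a made up 64.5% and 66.6% of the family counts in replicates 1 and 2. Mir148b contributed 19.4% and 17.8%, and Mir152 16.1% and 15.5%. All of these counts came from the strand of the annotated gene, and the opposite strand held 0 counts for each member in both libraries, a count that allows a level of at most 0.599 CPM (replicate 1) or 0.641 CPM (replicate 2).

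The family is known from gastric tissue, where Mir148a can be abundant. These libraries are of whole embryonic stomach, and adult stomach was not measured. In them Mir148a held rank 104 of the 1973 genes by mean CPM and lay above 257 of the 361 detected genes. Mir148b held rank 150 and Mir152 rank 152, above 211 and 209 detected genes. The median over detected genes was 139 CPM, so each member stood above the median without being among the leading genes. Reads mapping to several places were left out, so genes that share a mature sequence may stand too low. The members may therefore stand too high in this order, and the median may be too low.

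**Figure D3:**
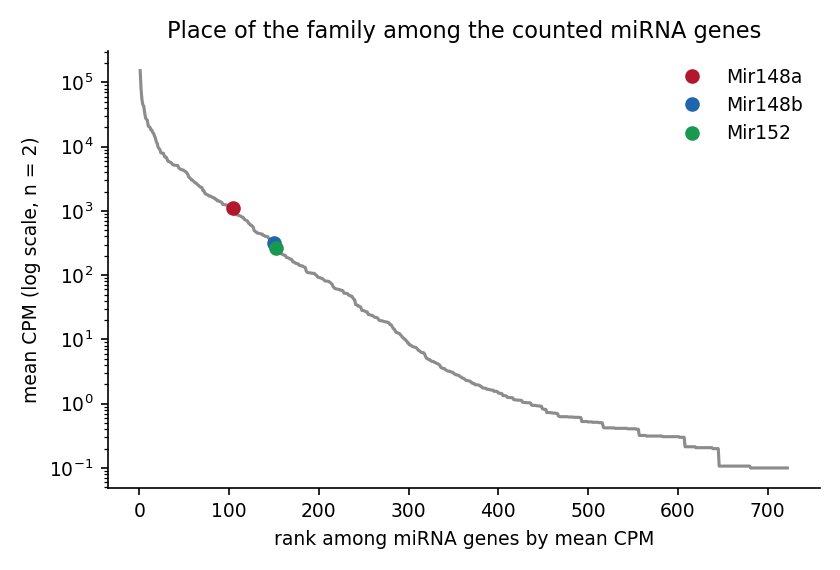
Mean CPM of each miRNA gene with a count (vertical axis, log scale, n = 2) against its rank (horizontal axis), with the 3 members marked. Mir148a is at rank 104, and Mir148b and Mir152 lie close together at ranks 150 and 152.

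The genes closest in level to each member were found by the distance over log2(CPM + 1) in the 2 libraries. For Mir148a the nearest was Mir200a, of the epithelial Mir200 family, at 1088 and 1132 CPM in replicates 1 and 2 and a distance of 0.024, followed by Mir181a-1 at a distance of 0.14. Mir132 (304 and 309 CPM, distance 0.092) and Mir339 (distance 0.15) were nearest to Mir148b. Mir340 (259 and 256 CPM, distance 0.059) and Mir92b (distance 0.23) were nearest to Mir152. With 2 samples, such likeness describes little more than a similar level.

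As a check of the tissue, epithelial miRNAs of the Mir200 family totalled 41439 and 41482 CPM in replicates 1 and 2 with 5 of 5 genes detected. The smooth muscle pair Mir143 and Mir145a totalled 164146 and 146512 CPM. Most of this was Mir143, at 161255 and 143726 CPM, while Mir145a had 2891 and 2787 CPM. The family total was lower than the epithelial total, by a log2 ratio of -4.63 ± 0.01 (SD, n = 2). Some markers of other tissues were below the family total. The liver miRNA Mir122 had 56.7 and 65.8 CPM, the pancreatic acinar list 6.59 and 5.98 CPM with 1 of 3 genes detected, and the striated muscle list 17.4 and 10.5 CPM with 2 of 5 counted genes at 0 in both libraries. These 2 genes, Mir133a-1 and Mir133a-2, share a mature sequence, so their reads may have been left out as mapping to several places. Only 1 gene of this list, Mir206, was detected. Mir1a-1 had 2 counts in replicate 1 and 0 in replicate 2, and Mir1a-2 was not among the counted genes. The striated muscle total may therefore be too low. The leukocyte list totalled 560.1 and 598 CPM, and the erythroid list 151 and 218 CPM. The endothelial Mir126a, at 21613 and 19164 CPM, was above the family total. In whole stomach, fewer cells of a type and less RNA per cell cannot be told apart, and which cells held the family was not measured.

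The seed of the family overlaps that of the Mir130 and Mir301 family, shifted by 1 base. The seeds CAGUGCA and AGUGCAA have 6 bases in common. The mature 3′ arms from RefSeq of Mir130a, Mir130b and Mir301, the most abundant genes with the shifted seed, are shown for comparison, again with the seed in capitals.
mmu-miR-130a-3p: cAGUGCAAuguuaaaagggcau
mmu-miR-130b-3p: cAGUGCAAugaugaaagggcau
mmu-miR-301a-3p: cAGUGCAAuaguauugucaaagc

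In contrast to the shared core of the seed, the levels of the families were far apart. The Mir148 and Mir152 family totalled 1663 CPM in replicate 1, against 32074 CPM for the 4 counted genes of the Mir130 and Mir301 family. In replicate 2 it totalled 1684 CPM, against 33598 CPM. The log2 ratio was -4.29 ± 0.03 (SD, n = 2), a level 19.6-fold lower. Most of the gap rests on 1 gene, Mir130a, at 25377 and 26286 CPM. Without Mir130a the family was 4.03-fold lower in replicate 1 and 4.34-fold lower in replicate 2 than the remaining Mir130b, Mir301 and Mir301b.

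Single members overlapped in range across the families. Mir148a, at 1073 and 1122 CPM, was below Mir301, at 1248 and 1505 CPM, in both libraries. All 3 members were above Mir301b, at 79.5 and 92.1 CPM. The RefSeq table held only the 5′ arm of Mir301b, so the seed of its 3′ arm was not compared here. Mir130b stood at 5369 and 5716 CPM. Further genes whose mature sequence has the shifted seed, Mir130c, Mir6341 and Mir6389, had 0 counts in both libraries, and no counted gene carried the symbol Mir721.

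**Figure D4:**
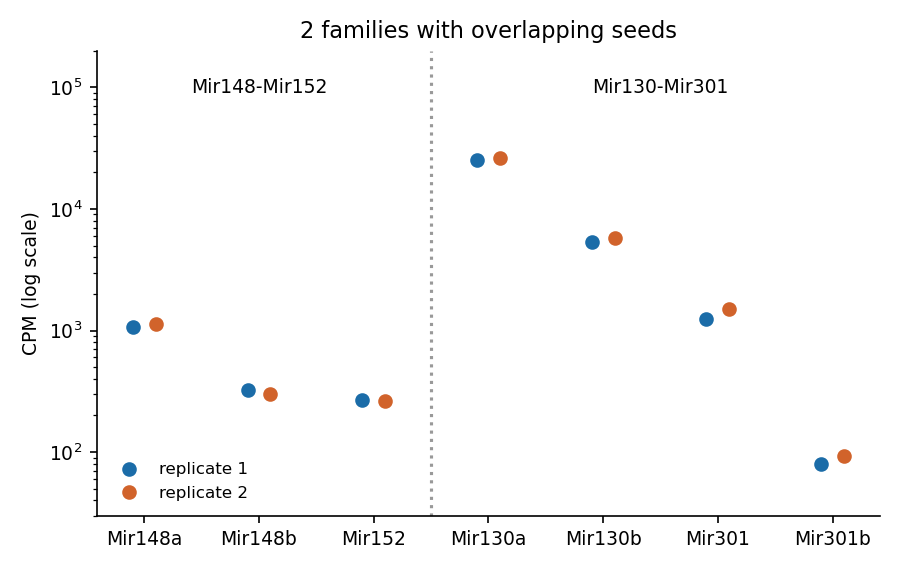
CPM in each replicate (vertical axis, log scale) of the 3 genes of the Mir148 and Mir152 family (left) and the 4 counted genes of the Mir130 and Mir301 family (right). Mir130a, at 25377 and 26286 CPM, is the highest and Mir301b, at 79.5 and 92.1 CPM, the lowest.

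Other miRNAs directed at DNA methyltransferases were set beside the family, which shares Dnmt1 as a known target. The list held the Mir29 genes, known to target Dnmt3a and Dnmt3b, and Mir185 and Mir342, reported against DNMT1 in human tumour cells. Of its 6 genes, 4 were detected. The family total of 1663 and 1684 CPM in replicates 1 and 2 was below the list total of 3892 and 5381 CPM, by a log2 ratio of -1.45 ± 0.32 (SD, n = 2). Mir342 made up most of that total, at 3581 and 5075 CPM. Mir185 had 205.4 and 205.6 CPM, Mir29c 61.1 and 58.5 CPM and Mir29a 42.4 and 40.4 CPM, each below Mir152, the lowest member of the family. Mir29b-1 and Mir29b-2 had at most 7 counts in a library, and as these genes share a mature sequence their reads may have been left out as mapping to several places.

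Families carried by paralogous host genes gave a further comparison. The Copz introns held Mir148b and Mir152 at 311 and 265 CPM on average, a 1.17-fold difference in counts. In the Ctdsp introns, Mir26b reached 33878 ± 106 CPM, against 18.5 ± 1.75 CPM for Mir26a-1 and 52.1 ± 7.00 CPM for Mir26a-2 (SD, n = 2 each). In the Pank introns, Mir107 had 1234 ± 31.9 CPM, against 4.26 ± 1.22 CPM for Mir103-1 and 51.8 ± 7.42 CPM for Mir103-2. The Mir26a genes share a mature sequence, as do the Mir103 genes, so their reads can map to several places and their levels may be too low. Host transcripts were not measured.

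The replicates were then compared for each of the 361 detected genes by a two-sided exact binomial test on the counts, conditional on their sum, and p-values were adjusted by the Benjamini-Hochberg method over all of them. The ratio is replicate 1 over replicate 2, and the test compares these libraries, not conditions. A gene was called where its adjusted p was below 0.05 and its log2 ratio at least 1 in size. By this rule 0 of the 3 members were called, beside 1.11% of the detected genes (4 of 361). By adjusted p alone 0 of the 3 members passed, beside 42.1% of the detected genes (152 of 361). All 3 members were above 100 CPM. Among the 196 detected genes of 100 CPM or more, 0 were called and 123 passed by adjusted p alone.

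Mir148a had a log2 ratio of -0.06 (95% exact interval -0.12 to -0.01) and came closest to the threshold, with an exact binomial adjusted p of 0.0505 and an unadjusted p of 0.0214. Mir148b had a log2 ratio of 0.10 (-0.004 to 0.20, exact binomial adjusted p = 0.115, unadjusted p = 0.0582). Mir152 had a log2 ratio of 0.04 (-0.07 to 0.15, exact binomial adjusted p = 0.646). The median absolute log2 ratio was 0.16 over all detected genes and 0.11 over the 196 genes of 100 CPM or more. Scaled by total gene counts, each member lay below these medians, which were not computed under other scalings. By adjusted p alone, Mir148b crossed the threshold under other scalings. When TMM factors from edgeR were applied, its log2 ratio was 0.15 (exact binomial adjusted p = 0.0141), and with DESeq2's size factors 0.14 (exact binomial adjusted p = 0.0245).

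The libraries as a whole also depended on that choice. By adjusted p alone, 63 genes were higher in replicate 1 and 89 in replicate 2, and with TMM factors these counts were 89 and 75. Of the 4 counted genes of the Mir130 and Mir301 family, 3 passed by adjusted p alone, beside 42.1% of all detected genes. By both thresholds 0 were called. The 3 that passed, Mir130a, Mir130b and Mir301, were above 100 CPM, and of the 196 detected genes of 100 CPM or more 123 passed. All 4 genes of the family had a log2 ratio below 0, from -0.27 to -0.05, as did 206 of the 361 detected genes, whose median was -0.04. Under each scaling tried, 4 of 4 were below 0, and with TMM factors 2 passed. Of the 4 detected genes directed at DNA methyltransferases, Mir342 alone passed by adjusted p, with a log2 ratio of -0.50 (exact binomial adjusted p = 3.83e-273).

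**Figure D5:**
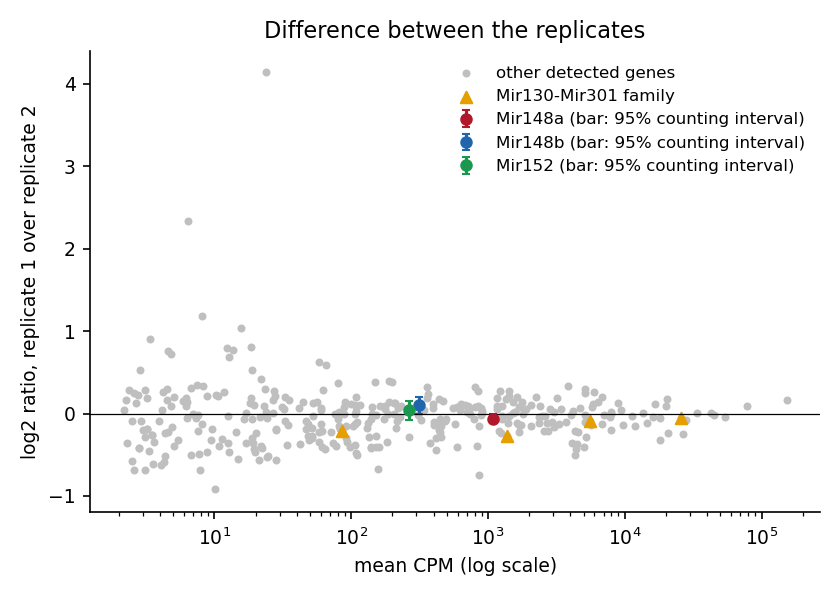
Log2 ratio of replicate 1 over replicate 2 (vertical axis) against mean CPM (horizontal axis, log scale) for the 361 detected genes. The 3 members, with 95% counting intervals, lie between -0.06 and 0.10, and the Mir130 and Mir301 family, as triangles, between -0.27 and -0.05.

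Messenger RNAs were not measured, and what follows describes reference sequence only. In the longest annotated 3′ UTR of each of 20996 protein-coding genes, the motif TGCACTG, which pairs with the family seed, was searched on the transcript strand. It occurred in 12.7% of them (2672). The motif TTGCACT, which pairs with the seed of the Mir130 and Mir301 family, occurred in 9.99%. The 8 bases TTGCACTG, in which both motifs overlap, occurred in 3.55%.

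Of 5 genes reported elsewhere as targets of the family, 4 held TGCACTG, with 7 matches in all, of which 4 overlapped TTGCACT. These genes were Dnmt1, the growth arrest gene Gadd45a, the cholesterol transporter Abca1 and the pro-apoptotic Bcl2l11. Cckbr, the gastrin receptor, whose link to the family comes from human tumour cells, did not hold these letters in its window of 917 bases. Abca1 held 2 and Bcl2l11 3 of the matches, in 3′ UTRs of 3156 and 4218 bases. The median 3′ UTR was 962 bases. The 5 genes were picked as reported targets, so their number with the motif cannot be set against its share over all 3′ UTRs. The stretches of Dnmt1 and Gadd45a are printed as 27 bases, with TGCACTG in capitals, because they show the motif without the overlap in Dnmt1 and with it in Gadd45a.
Dnmt1, chromosome 9: gagccccacgTGCACTGatgtttttaa
Gadd45a, chromosome 6: tgaaccaaatTGCACTGaagttttgaa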

How the data were processed

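The authors deposited, per library, counts per gene as whole numbers, in 3 columns, of which the strand columns add up to the first for every gene. Per the file text that comes with the tables, they were made on mm10 with GENCODE M4. Neither aligner nor counter is named there (not given in the sources used here). Values were taken from the both-strand column. Unmapped reads (12.5% and 13.5% of all reads in replicates 1 and 2), reads mapping to several places (27.8% and 27.4%) and reads outside genes (2.50% and 2.32%) name no gene and were left out of totals. Symbols came from GENCODE M21 (1894 of 1973 genes). CPM, exact binomial intervals and tests were computed with Python 3.11.15 and SciPy 1.17.1, and scaling factors with edgeR 4.0.16 and DESeq2 1.42.0. edgeR's quasi-likelihood test has no contrast with 1 group. The library test was tested on simulated data with counting error alone. That simulation held no further variation between replicates, so it does not show how the test behaves under such variation. A count of 3 was taken as the upper limit of a count of 0. Reads carry no molecular identifiers.

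The genes named are the members, the genes of the lists, and for each member the 2 genes nearest in level and its hosts and neighbours. The members and lists were chosen with earlier results of these data known. Genes searched for the seed motif and genes that share a shifted seed were chosen after the data were seen. For the 3′ UTR, the longest one per gene symbol in GENCODE M21 was used. Alternatives changed the strand column, the denominator, the scaling, the count filter, length and the replicates used.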

Additional observations from a re-analysis of the deposited data

How the results depend on the processing

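With all reads in the denominator, the levels were 625, 177 and 151 per 1000000 reads for Mir148a, Mir148b and Mir152, and the family share was 0.0953%. With totals that leave out the 5 most abundant genes they were 1746, 496 and 422 CPM and 0.266%. With the own-strand column Mir152 had 272 CPM and the family share was 0.172%, and the shifts of Mir148a and Mir148b were within 1 SD. These settings change the denominator alone, and the order of the members did not change under them. Per nt of precursor, the log2 ratio of Mir148a over Mir152 was 1.61, that of Mir148b over Mir152 turned to -0.18, and that of the family over the Mir130 and Mir301 family was -4.77. Between the replicates, Mir148b passed by adjusted p alone with TMM factors (log2 ratio 0.15), size factors (0.14) and totals without the 5 most abundant genes (0.15). Mir148a and Mir152 passed under none of the 5 alternatives, and genes past both thresholds numbered 4 to 6. Without 1 replicate, Mir148a ranged from 1073 to 1122 CPM, Mir148b from 300.4 to 322 and Mir152 from 261 to 269, and the difference between replicates has no value. No paired analysis was possible because there is 1 group. Each SD rests on 2 libraries, and intervals cover counting error only.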

Other observations

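The distances from Mir148b and Mir152 to Hox clusters were noticed in the annotation after the values were seen and are described here without a test. Mir148b is 248 kb from Hoxc4, and Mir152 is 482 kb from Hoxb1. Other protein-coding genes lie closer, with Gpr84 at 23.0 kb from Mir148b and Nfe2l1 at 20.4 kb from Mir152. The distance from Mir148a to a Hox cluster was not computed, so no contrast with Mir148a is meant. On chromosome 11, Mir152 had 265 CPM and Mir10a 44729 ± 372 CPM (SD, n = 2), while Mir196a-1 had 0 counts in both libraries. On chromosome 15, Mir148b had 311 CPM, Mir615 1256 ± 17.6 CPM and Mir196a-2 0.93 ± 0.19 CPM. Mir196a-1 and Mir196a-2 share a mature sequence, so reads that map to both were not counted, and their counts cannot be read as levels. Of the counted miRNA genes nearest to the members, Gm22914 for Mir148a and Mir6963 for Mir148b had 0 counts in both libraries, and Mir8103, nearest to Mir152, had 5 counts in replicate 1 and 4 in replicate 2.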
